A study of Mus musculus with 19 samples.

Results

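The eicosanoid synthesis genes Alox5, Alox5ap, Lta4h, Ltc4s, Ptgs1, Ptgs2 and Hpgds were followed across sorted monocyte populations of mouse bone marrow. These 7 genes were chosen by name, as enzymes and helper proteins of the leukotriene and prostaglandin pathways. All 7 are among the 50854 genes of the count table, and all 7 were among the 18652 genes tested, which averaged 1 read or more per library in the 19 libraries used.

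The study asked whether monocytes that carry both CCR1 and CCR2 differ from those that carry CCR2 alone, at rest and under inflammation, by sequencing the RNA of sorted cells in bulk. All libraries came from female mice, 8 to 12 weeks old. The cells were sorted from REP mice, in which Clover reports CCR1 and mRuby2 reports CCR2. The background strain, the number of mice behind each library and whether resting mice carried vehicle pumps are not given in the sources used here. Resting CCR1/2+ve monocytes, positive for both reporters, gave 4 libraries, and resting CCR2+ve monocytes, positive for mRuby2 only, gave 4. Inflamed mice carried osmotic pumps under the skin that released IL-3, IL-6, GM-CSF and IFN-α for 7 days. They gave 3 libraries of CCR1/2+ve monocytes, 4 of CCR2+ve monocytes and 4 labelled inflamed CCR1, a population that the study's sort does not describe. For its macrophage cultures, the paper gated bone marrow inflammatory monocytes of resting mice as CD11b+ Ly6C++ Ly6G- SiglecF- cells. The full gate behind the bulk libraries is not given in the sources used here. Nothing says that replicates came from separate mice, so p values measure the spread between libraries, which may be technical. In bulk libraries, fewer cells of a type and less RNA per cell cannot be told apart.

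Eicosanoids are made from arachidonic acid that phospholipases free from membranes. In the leukotriene branch, 5-lipoxygenase (Alox5) works with its activating protein FLAP (Alox5ap) to make leukotriene A4, which LTA4 hydrolase (Lta4h) turns into the neutrophil attractant LTB4 and LTC4 synthase (Ltc4s) joins to glutathione to start the cysteinyl leukotrienes. In the prostaglandin branch, the cyclooxygenases COX-1 (Ptgs1) and COX-2 (Ptgs2) make prostaglandin H2, from which hematopoietic prostaglandin D synthase (Hpgds) makes prostaglandin D2. Myeloid cells are a main source of leukotrienes, and COX-2 is known as the inducible cyclooxygenase of activated macrophages.

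Between 22268658 and 30502009 reads were counted on genes per library. The 4 libraries labelled inflamed CCR1 went against their label. Ccr1 was at 32.0 to 42.7 CPM (counts per M reads, with TMM factors over the 19 libraries) in them, below all other libraries (66.6 to 421 CPM), and Ccr2 was at 4.04 to 9.57 CPM, against 474 to 1370 CPM elsewhere. The summed level of 13 monocyte markers was 7840 to 12471 CPM in them and 31926 to 58591 CPM in the other 15, and the monocyte genes Csf1r and Fcgr1 were at 13.7 to 24.0 and 2.45 to 4.19 CPM. Ly6c2 (1364 to 1483 CPM) and Itgam (77.5 to 102 CPM), of the same list, lay within the range of the other libraries. The 13 markers of the list named mature neutrophil summed to 109653 to 160064 CPM in the libraries labelled inflamed CCR1 (1589 to 4072 CPM elsewhere). The 6 early granule markers in the table summed to 55098 to 61845 CPM there (351 to 6781 CPM elsewhere). Ngp, with a mean of 85941 CPM, made up most of the neutrophil sum, whereas Mmp8 of that list was lower than elsewhere (mean 9.09 CPM, against group means of 451 to 1606) and Csf3r was at 564 CPM, against 470 to 519 CPM in the inflamed monocytes. Cxcr2, Retnlg, Ly6g and Mmp9 of that list were above every other group mean, but only at 35.8, 22.8, 14.4 and 4.72 CPM. Of the early granule markers, Elane was at 24861 and Mpo at 20708 CPM. The neutrophil sum thus does not tell how mature the cells were. These 4 libraries are called the libraries labelled inflamed CCR1 below, and each result that rests on them is given apart from the rest.

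The promoters of Alox5, Lta4h and Ptgs1 are shown because these 3 genes moved together in the libraries labelled inflamed CCR1. Each is the 250 bases before the RefSeq start on GRCm38.p6, read along the strand of the gene: chr6:116461179-116461428, minus strand, for Alox5, chr10:93453146-93453395, plus strand, for Lta4h, and chr2:36230176-36230425, plus strand, for Ptgs1. RefSeq promoters were matched for 6 of the 7 genes, all but Alox5ap. Capitals mark GAGGAA or its reverse complement TTCCTC, the core that the myeloid factor PU.1 prefers.
Alox5: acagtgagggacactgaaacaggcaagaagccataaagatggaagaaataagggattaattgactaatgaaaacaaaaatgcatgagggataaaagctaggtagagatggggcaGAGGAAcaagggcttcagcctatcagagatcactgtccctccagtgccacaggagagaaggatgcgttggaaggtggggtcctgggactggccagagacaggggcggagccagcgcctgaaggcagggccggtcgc
Lta4h: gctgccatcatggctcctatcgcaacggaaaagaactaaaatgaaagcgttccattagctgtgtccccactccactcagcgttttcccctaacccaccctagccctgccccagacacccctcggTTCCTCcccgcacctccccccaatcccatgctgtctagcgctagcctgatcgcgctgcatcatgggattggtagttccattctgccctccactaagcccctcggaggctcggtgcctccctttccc
Ptgs1: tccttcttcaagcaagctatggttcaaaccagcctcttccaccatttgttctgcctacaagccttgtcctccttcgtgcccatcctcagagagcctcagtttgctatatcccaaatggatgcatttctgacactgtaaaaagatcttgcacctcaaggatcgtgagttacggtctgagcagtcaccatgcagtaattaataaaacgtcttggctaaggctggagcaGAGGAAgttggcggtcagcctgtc
The motif began 136 bases before the start of Alox5, 126 before that of Lta4h and 24 before that of Ptgs1. It was also present once in the windows of Ptgs2 and Hpgds and 0 times in that of Ltc4s. Of the 32851 promoters in the table, 23.3% held it within the same 250 bases. A match is a description of the letters and not of binding.

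At rest, 4 of the 7 genes passed the test between the populations: Lta4h, Ptgs1 and Hpgds were higher in CCR1/2+ve monocytes and Alox5ap was lower. With inflammation, Ptgs1 rose in both populations, Hpgds fell in CCR1/2+ve monocytes and Alox5ap fell slightly in CCR2+ve monocytes. The fall of Alox5ap did not pass under 11 of 16 other processing choices or left-out libraries. In the test of whether the populations changed differently, 0 members passed. Under inflammation, Ptgs1 was the 1 member whose difference between the populations passed the test, higher in CCR1/2+ve monocytes. The libraries labelled inflamed CCR1 had far more Alox5, Lta4h and Ptgs1 and less Alox5ap than either inflamed population. Ltc4s and Ptgs2 stood at a handful of reads in nearly every library.

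In counts, a gene passed at an adjusted p below 0.05 (edgeR's quasi-likelihood test, Benjamini-Hochberg over the 18652 genes) and was called when its log2 fold change was also at least 1 in size. Between the resting populations, 4 members passed (16.9% of all genes tested did) and 1, Hpgds, was called (4.25%). Of the 4, 3 were higher in CCR1/2+ve monocytes (8.44% of all genes) and 1 was lower (8.44%). Between inflamed and resting CCR2+ve monocytes, 2 passed (47.8%), 1 higher (21.9%) and 1 lower (25.9%), and 0 were called (28.6%). In that comparison 2 members had an unadjusted p below 0.05, and DESeq2 also called 0.

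Between inflamed and resting CCR1/2+ve monocytes, 2 members passed (46%), 1 higher (20.6%) and 1 lower (25.4%), and 1, Hpgds, was called (28.5%). Between inflamed CCR1/2+ve and inflamed CCR2+ve monocytes, 1 passed (0.188%) and 0 were called (0.145%), with 2 at an unadjusted p below 0.05 and 0 called by DESeq2. The libraries labelled inflamed CCR1 differed from inflamed CCR2+ve monocytes in 4 members that passed (48.1%) and were called (31.3%), 3 higher (14.4%) and 1 lower (16.8%). Against inflamed CCR1/2+ve monocytes the same 4 passed (43.2%) and were called (27.7%). In the interaction test, which asks whether the populations changed differently under inflammation, 0 members passed (0.397%) and 0 were called (0.214%) in edgeR, with 3 at an unadjusted p below 0.05 and 0 called by DESeq2. The comparisons of one resting or inflamed group with several others share its libraries.

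**Figure D1:**
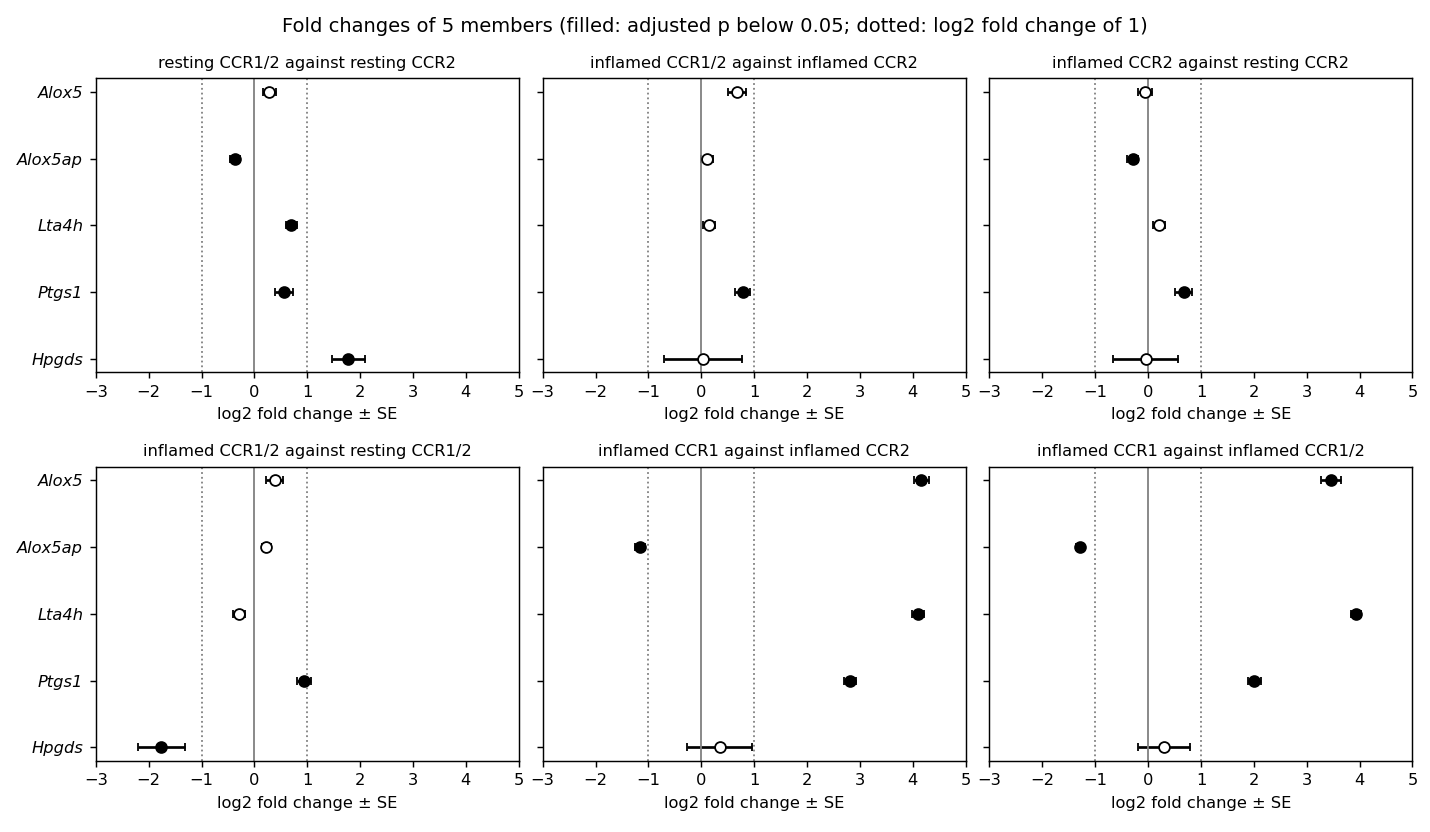
Log2 fold change of 5 members (x axis, first group over second, with the standard error as a bar) in 6 comparisons, 1 panel each. Filled points passed an adjusted p of 0.05 and dotted lines mark a log2 fold change of 1 in either direction. The largest changes are those of Alox5 and Lta4h in both panels of the libraries labelled inflamed CCR1, at 3.46 to 4.16.

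Alox5, which encodes 5-lipoxygenase (ENSMUSG00000025701, chr6:116410077-116461178, minus strand, coordinates of genes being those of GENCODE M21 on GRCm38), was low in all 4 monocyte groups. Its level was 30.9, 28.6, 37.7 and 39.6 CPM in the resting CCR1/2+ve libraries and 25.2, 27.8, 36.2 and 29.7 CPM in the resting CCR2+ve libraries. It was 37.1, 52.4 and 55.5 CPM in inflamed CCR1/2+ve monocytes and 31.8, 25.2, 33.4 and 29.2 CPM in inflamed CCR2+ve monocytes. The resting populations overlapped, whereas every inflamed CCR1/2+ve library was above every inflamed CCR2+ve library. The log2 fold change between the inflamed populations was 0.68 (SE 0.17), which did not pass (edgeR, adjusted p = 0.178). It passed under 4 of the 15 alternatives, over which the adjusted p ranged from 0.0244 to 0.530. Between the resting populations it was 0.28 (SE 0.12, edgeR, adjusted p = 0.145), and it passed when the libraries were paired by replicate number (adjusted p = 0.0296). Inflammation moved Alox5 by −0.06 (SE 0.14, adjusted p = 0.763) in CCR2+ve monocytes and by 0.38 (SE 0.15, adjusted p = 0.0651) in CCR1/2+ve monocytes in edgeR's test. The latter passed under 5 of 15 alternatives, among them the fit without replicate 2 of the inflamed CCR1/2+ve monocytes, the lowest of the 3 (log2 fold change 0.55, edgeR, adjusted p = 0.00336).

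In the libraries labelled inflamed CCR1, Alox5 was at 485, 446, 557 and 645 CPM. All 4 were far above the 15 other libraries, the highest of which stood at 55.5 CPM. Alox5 was 17.9-fold higher there than in inflamed CCR2+ve monocytes (log2 fold change 4.16, SE 0.14, edgeR, adjusted p = 2.58e-13) and higher than in inflamed CCR1/2+ve monocytes by 3.46 (SE 0.19, adjusted p = 4.76e-08). The neutrophil marker sum given above was higher in these libraries, as Alox5 was, and the monocyte sum was lower. Their part in the result was not tested. Basophil and mast cell markers (9 of 11 in the table) moved too, at 1040 to 1147 CPM in these libraries and 7.01 to 247 CPM elsewhere, with Tpsab1 and Tpsb2 under 0.1 CPM. Hdc (719 against 8.96 CPM in inflamed CCR2+ve monocytes) and Kit (160 against 0.138) made up most of the difference from those monocytes. Prss34 (185 against 156), Cpa3 (9.26 against 7.84) and Fcer1a (4.97 against 3.97) were close. The 6 eosinophil markers summed to 39.4 to 90.2 CPM, against 0.830 to 5.30 CPM elsewhere.

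Alox5ap encodes FLAP, the membrane protein that presents arachidonic acid to 5-lipoxygenase (ENSMUSG00000060063, chr5:149264767-149288153, plus strand). On the scale of CPM per kb of exon it was the most abundant of the 7 genes in all 4 monocyte groups, with group means of 417 to 566. In CPM, it stood at 574, 496, 669 and 629 in resting CCR1/2+ve monocytes and at 735, 702, 848 and 931 in resting CCR2+ve monocytes. Every CCR1/2+ve library was below every CCR2+ve library at rest, a log2 fold change of −0.37 (SE 0.10, edgeR, adjusted p = 0.0238). The direction held under all 16 alternatives, but the result did not pass when any of 4 libraries was left out: CCR1/2+ve replicates 1 and 2 and CCR2+ve replicates 3 and 4 (adjusted p of 0.0563 to 0.0727, edgeR). Paired by replicate number, Alox5ap was lower in 4 of 4 pairs (−0.36, edgeR with the replicate block, adjusted p = 5.18e-05).

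Under inflammation the libraries of the populations overlapped. Alox5ap was at 747, 753 and 761 CPM in CCR1/2+ve monocytes and at 753, 717, 708 and 583 CPM in CCR2+ve monocytes (log2 fold change 0.11, SE 0.11, edgeR, adjusted p = 0.810). Against rest, it fell by 0.29 on the log2 scale in CCR2+ve monocytes (SE 0.11, edgeR, adjusted p = 0.0380), where the libraries overlapped, and was 0.22 higher in CCR1/2+ve monocytes (SE 0.09, adjusted p = 0.0565), where they did not. The fall in CCR2+ve monocytes did not pass under 11 of 16 alternatives, DESeq2 and the leaving out of any of 7 of the 8 libraries among them. The difference between these changes, 0.47 (SE 0.15), had an unadjusted p of 0.00456 and an adjusted p of 0.167 in edgeR's interaction test, and DESeq2 gave an adjusted p of 0.0422.

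The libraries labelled inflamed CCR1 held the least Alox5ap, at 312, 296, 313 and 311 CPM, below every other library. It was 2.23-fold lower there than in inflamed CCR2+ve monocytes (log2 fold change −1.16, SE 0.10, edgeR, adjusted p = 3.76e-08) and 2.45-fold lower than in inflamed CCR1/2+ve monocytes (−1.29, SE 0.08, adjusted p = 2.07e-08). Of the exonic bases of Alox5ap, 13.3% lie under exons of Gm19719 on the opposite strand, and the strand of counting is not stated in the sources used here.

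Per kb of exon, Alox5ap exceeded Alox5 by 45.9 to 53.7 times in resting CCR1/2+ve libraries and by 67.8 to 90.7 times in resting CCR2+ve libraries. The resting populations did not overlap in this ratio. It was 39.6 to 58.2 in inflamed CCR1/2+ve libraries and 57.8 to 82.4 in inflamed CCR2+ve libraries, which overlapped. In the libraries labelled inflamed CCR1 it was 1.40 to 1.92.

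**Figure D2:**
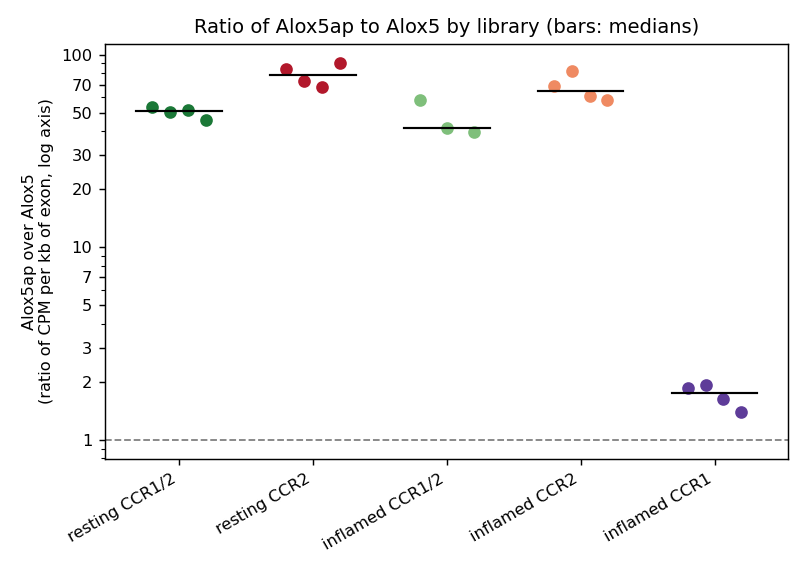
Ratio of Alox5ap to Alox5 in CPM per kb of exon (y axis, log scale) by group, with 1 point per library and a bar at the median. The 15 monocyte libraries lie between 39.6 and 90.7 and the 4 libraries labelled inflamed CCR1 between 1.40 and 1.92, near the dashed line of equal levels.

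Lta4h encodes LTA4 hydrolase, the enzyme of the last step to LTB4 (ENSMUSG00000015889, chr10:93453411-93484875, plus strand). At rest it stood at 279, 382, 345 and 349 CPM in CCR1/2+ve monocytes and at 186, 241, 231 and 224 CPM in CCR2+ve monocytes. The lowest CCR1/2+ve library was above the highest CCR2+ve library. The difference was 1.62-fold (log2 fold change 0.70, SE 0.11, edgeR, adjusted p = 0.000818), short of the fold cutoff, and it passed under all 16 alternatives. On CPM, the two-sided exact permutation p was 0.0286, the smallest that 4 libraries against 4 allow. In the same libraries the mature neutrophil markers summed to 3237 to 4066 CPM (CCR1/2+ve) and 1589 to 2272 CPM (CCR2+ve), with Retnlg under 0.1 CPM in the former and Mmp9 in the latter. S100a8 (means of 1770 and 157 CPM) and S100a9 (325 and 20.3) made up that difference, whereas Cd177 (633 and 874), Mmp8 (451 and 548), Csf3r (170 and 222) and Ltf (3.22 and 6.69) were lower in CCR1/2+ve monocytes. The early granule markers summed to 3293 to 6781 and 445 to 1653 CPM. The part of these cells in the results at rest was not tested.

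Under inflammation the populations overlapped. The level of Lta4h was 331, 289 and 285 CPM in inflamed CCR1/2+ve monocytes and 304, 293, 247 and 231 CPM in inflamed CCR2+ve monocytes, which overlapped (log2 fold change 0.15, SE 0.12, edgeR, adjusted p = 0.762). Against rest it changed by −0.30 (SE 0.11, adjusted p = 0.0508) in CCR1/2+ve monocytes and by 0.21 (SE 0.11, adjusted p = 0.135) in CCR2+ve monocytes in edgeR's test, and each of these passed under 4 alternatives. The interaction, −0.55 (SE 0.17), had an unadjusted p of 0.00356 and an adjusted p of 0.154 in edgeR, and passed under 0 of 22 alternatives.

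Lta4h reached 4548, 4321, 4895 and 4600 CPM in the libraries labelled inflamed CCR1. All 4 were far above the 15 other libraries, of which the highest stood at 382 CPM. The level was 17.2-fold that of inflamed CCR2+ve monocytes (log2 fold change 4.10, SE 0.12, edgeR, adjusted p = 2.63e-14) and 15.2-fold that of inflamed CCR1/2+ve monocytes (3.93, SE 0.10, adjusted p = 2.35e-12). The ratio of Lta4h to Alox5 per kb of exon was 4.80 to 6.53 there and 3.45 to 8.98 in the other libraries, so the libraries labelled inflamed CCR1 did not stand apart in this ratio.

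**Figure D3:**
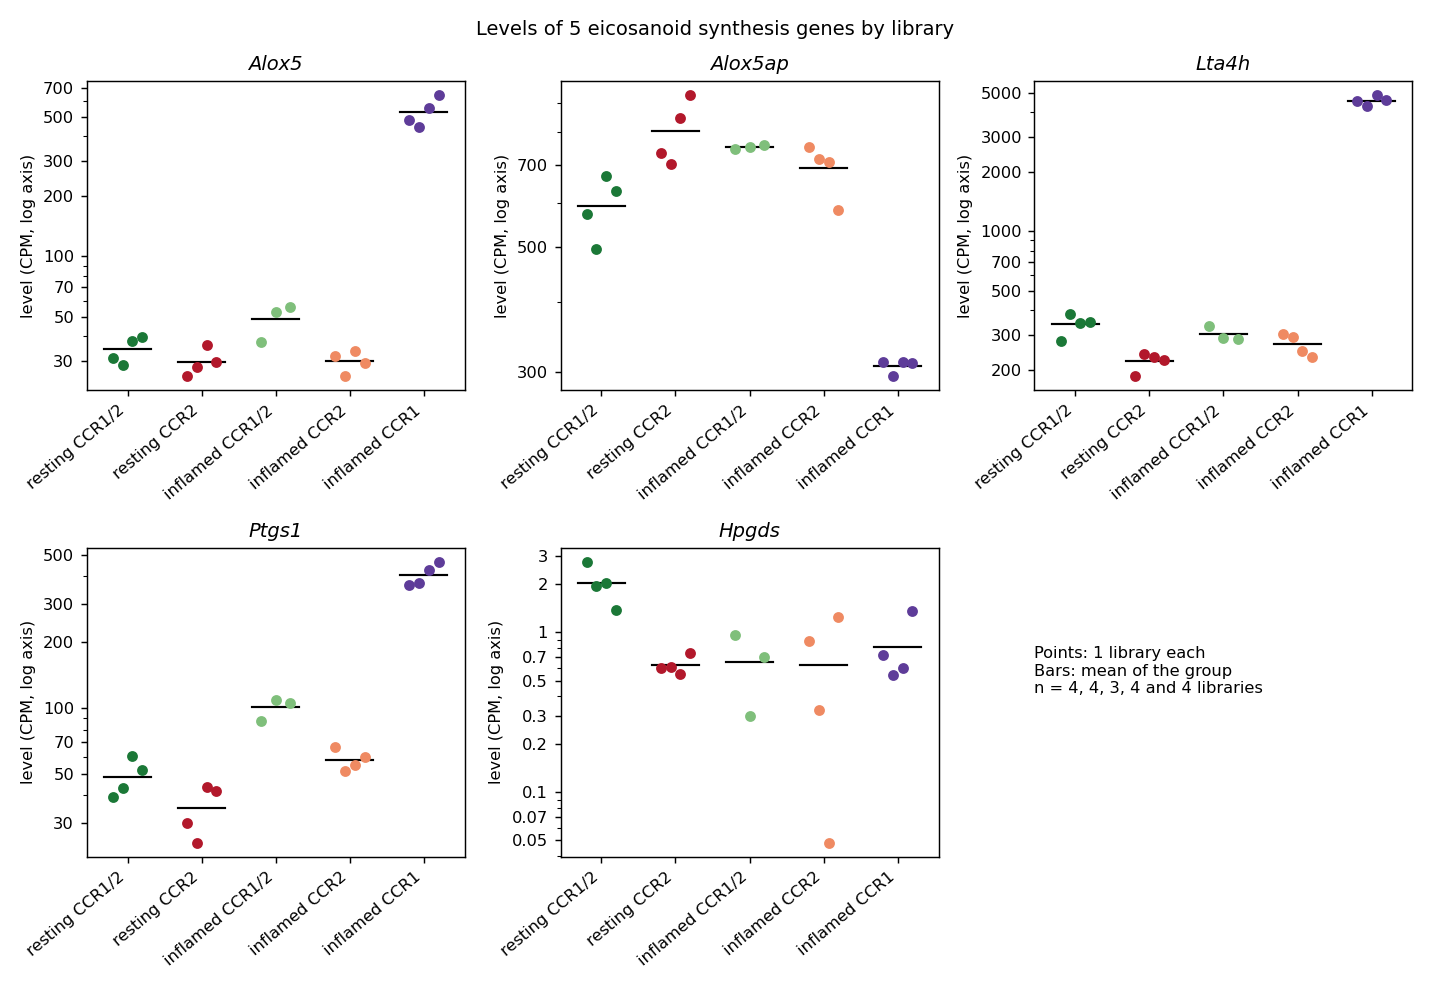
Level of Alox5, Alox5ap, Lta4h, Ptgs1 and Hpgds (y axis, CPM on a log scale) in each library by group, with bars at the group means. Alox5, Lta4h and Ptgs1 are highest and Alox5ap is lowest in the 4 libraries labelled inflamed CCR1, and Hpgds is highest in the 4 resting CCR1/2+ve libraries.

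Ltc4s, the synthase of LTC4 (ENSMUSG00000020377, chr11:50236461-50238616, minus strand), was barely read in any group. The resting CCR1/2+ve libraries held 3, 1, 3 and 0 reads and the resting CCR2+ve libraries 5, 3, 5 and 3. The inflamed CCR1/2+ve libraries held 0, 3 and 4 reads, the inflamed CCR2+ve libraries 0, 1, 2 and 0, and those labelled inflamed CCR1 5, 0, 0 and 2. A library with 0 reads allows up to 3, and no fold is given. The resting CCR2+ve libraries all held more reads than the inflamed ones (two-sided exact permutation p on CPM of 0.0286, the smallest possible), but edgeR's test did not pass (adjusted p = 0.0989) except without replicate 3 of the inflamed CCR2+ve monocytes (0.0485). The other comparisons of Ltc4s overlapped. Exons of Gm26542 on the opposite strand cover 26.4% of its exonic bases.

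Mgst2, a microsomal glutathione transferase that can also make LTC4, was measured well and was called between the populations in both states. It stood at 36.0, 62.9, 36.4 and 33.2 CPM in resting CCR1/2+ve monocytes and at 5.18, 15.04, 7.07 and 6.02 CPM in resting CCR2+ve monocytes. It was 8.09, 7.69 and 10.9 CPM in inflamed CCR1/2+ve monocytes and 3.28, 3.26, 2.37 and 2.15 CPM in inflamed CCR2+ve monocytes. The populations overlapped in neither state, and both fell under inflammation (log2 fold change −2.38 in CCR1/2+ve and −1.67 in CCR2+ve monocytes, both called). The log2 fold change between them was 2.41 at rest (SE 0.37, edgeR, adjusted p = 0.00258) and 1.67 under inflammation (SE 0.24, edgeR, adjusted p = 0.0120), where the call was lost without CCR1/2+ve replicate 4 (1.51, adjusted p = 0.0668). The libraries labelled inflamed CCR1 held 232, 192, 215 and 242 CPM, 80.1-fold the inflamed CCR2+ve level. The sum of the early granule markers moved with Mgst2 across the groups, at 954 to 1366 CPM in inflamed CCR1/2+ve and 351 to 629 CPM in inflamed CCR2+ve monocytes. Not every marker did. In CCR2+ve monocytes under inflammation, Mpo (means of 376 to 41.9 CPM) and Elane (338 to 184) fell, whereas Prtn3 (152 to 196) and Fcnb (56.6 to 68.2) rose. The part of these markers was not tested.

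Ptgs1, the constitutive cyclooxygenase (ENSMUSG00000047250, chr2:36230426-36252272, plus strand), rose under inflammation in both populations. It was at 39.2, 43.1, 60.6 and 52.2 CPM in resting CCR1/2+ve monocytes and at 87.9, 110 and 106 CPM in the inflamed ones. In CCR2+ve monocytes it was at 29.9, 24.4, 43.7 and 42.1 CPM at rest and at 66.7, 51.7, 54.9 and 59.9 CPM under inflammation. In each population every inflamed library was above every resting one. The rise was 1.91-fold in CCR1/2+ve monocytes (log2 fold change 0.93, SE 0.14, edgeR, adjusted p = 0.000151) and 1.59-fold in CCR2+ve monocytes (0.67, SE 0.16, adjusted p = 0.00319), and passed under every alternative tried. The interaction did not pass (0.21, SE 0.24, edgeR, adjusted p = 0.757). Erythroid markers summed to 58.6 to 297 CPM at rest and to 1.55 to 4.23 CPM in these inflamed libraries, and basophil and mast cell markers to 7.01 to 32.7 and 110 to 247 CPM, with the mast cell genes Tpsab1 and Tpsb2 under 0.1 CPM in both states. Prss34 made up most of the basophil and mast cell rise (means of 4.42 and 142 CPM in CCR1/2+ve, 4.61 and 156 in CCR2+ve monocytes). Cpa3, Ms4a2, Fcer1a and Gata2 rose less. Kit fell in both (3.42 to 0.442 and 0.800 to 0.138 CPM). Hdc fell in CCR1/2+ve (12.3 to 9.45) and rose in CCR2+ve monocytes (4.90 to 8.96). The part of erythroid, basophil and mast cells in the changes under inflammation was not tested.

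Ptgs1 was also the 1 member that passed the test between the populations in both states, higher in CCR1/2+ve monocytes each time. The difference was 1.47-fold at rest (log2 fold change 0.56, SE 0.17, edgeR, adjusted p = 0.0418), where the libraries overlapped, and 1.72-fold under inflammation (0.78, SE 0.14, adjusted p = 0.0401), where they did not. At rest the result did not pass under 7 of 16 alternatives, among them the leaving out of CCR1/2+ve replicate 2, 3 or 4 and of CCR2+ve replicate 1 or 2 (edgeR, adjusted p up to 0.109). Paired by replicate number, it was higher in CCR1/2+ve monocytes in 4 of 4 pairs (0.57, edgeR with the replicate block, adjusted p = 0.000171). Under inflammation it did not pass when CCR1/2+ve replicate 3 or 4, or CCR2+ve replicate 2, 3 or 4, was left out (up to 0.235). The log2 fold changes over the alternatives stayed at 0.42 to 0.67 at rest and 0.71 to 0.88 under inflammation.

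The libraries labelled inflamed CCR1 held 366, 373, 426 and 467 CPM of Ptgs1, above all others. This was 7.03-fold the level of inflamed CCR2+ve monocytes (log2 fold change 2.81, SE 0.12, edgeR, adjusted p = 4.11e-12) and 4.03-fold that of inflamed CCR1/2+ve monocytes (2.01, SE 0.12, adjusted p = 1.49e-08). An opposite-strand gene, Gm43621, covers 3.81% of the exonic bases of Ptgs1.

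Ptgs2, the inducible cyclooxygenase (ENSMUSG00000032487, chr1:150100031-150108227, plus strand), was nearly unread, also under inflammation. The resting CCR1/2+ve libraries held 0, 32, 0 and 0 reads and the resting CCR2+ve libraries 0, 6, 0 and 0. The inflamed CCR1/2+ve libraries held 1, 5 and 3 reads, the inflamed CCR2+ve libraries 0, 6, 0 and 8, and those labelled inflamed CCR1 0, 1, 0 and 0. At rest all reads came from the libraries numbered 2. Of the 19 libraries, 11 held 0 reads, each of which allows up to 3 reads, and no fold is given. Without the libraries numbered 2, the 6 resting libraries held 0 reads.

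The transcript Ptgs2os2, annotated on the opposite strand beyond the end of Ptgs2 (chr1:150159043-150164948) with no shared exon, was read more often. It had 9, 11, 26 and 16 reads in resting CCR1/2+ve and 7, 3, 1 and 0 in resting CCR2+ve monocytes. Under inflammation it had 34, 12 and 22 reads in CCR1/2+ve and 29, 26, 13 and 20 in CCR2+ve monocytes. All 4 libraries labelled inflamed CCR1 had 0. The rise in CCR2+ve monocytes was called (log2 fold change 3.08, SE 0.67, edgeR, adjusted p = 0.00146).

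**Figure D4:**
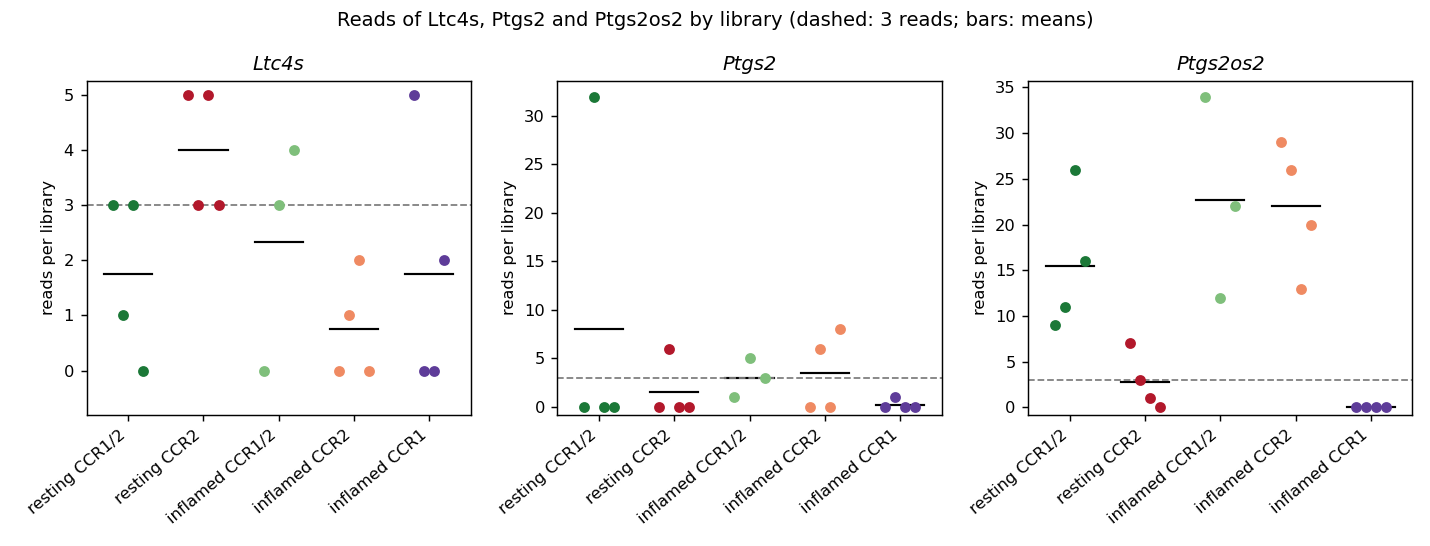
Reads of Ltc4s, Ptgs2 and Ptgs2os2 per library (y axis, linear) by group, with bars at the means and a dashed line at 3 reads. Ltc4s never exceeds 5 reads, and the 32 reads of Ptgs2 in replicate 2 of the resting CCR1/2+ve monocytes stand alone.

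Hpgds, the prostaglandin D synthase of blood cells (ENSMUSG00000029919, chr6:65117293-65144908, minus strand), was scarce but set resting CCR1/2+ve monocytes apart. They held 84, 64, 52 and 45 reads, or 2.77, 1.95, 2.04 and 1.39 CPM. Resting CCR2+ve monocytes held 15, 17, 14 and 18 reads, or 0.602, 0.610, 0.547 and 0.747 CPM. No library of one population reached the range of the other. The difference was 3.42-fold (log2 fold change 1.77, SE 0.31, edgeR, adjusted p = 0.00198), and Hpgds was the 1 member called at rest. It was called under all 16 alternatives, with log2 fold changes of 1.58 to 1.93.

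Under inflammation Hpgds was lower in CCR1/2+ve monocytes. The inflamed libraries of this population held 20, 6 and 16 reads (0.969, 0.2997 and 0.703 CPM), all below the resting libraries. The fall was 3.39-fold (log2 fold change −1.76, SE 0.44, edgeR, adjusted p = 0.00641) and held under all 15 alternatives, at −2.12 to −1.36. Inflamed CCR2+ve monocytes held 20, 7, 1 and 29 reads (0.886, 0.326, 0.0484 and 1.25 CPM), spread on both sides of their resting level (−0.05, SE 0.61, edgeR, adjusted p = 0.965). The interaction of −1.75 (SE 0.80) had an unadjusted p of 0.0425 and an adjusted p of 0.365 in edgeR. The libraries labelled inflamed CCR1 held 16, 12, 13 and 29 reads and overlapped the inflamed populations (adjusted p = 0.681 against each, edgeR).

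T and NK cell markers, a list that includes Nkg7, summed to 30.5 to 81.1 CPM in resting CCR1/2+ve and 8.83 to 15.7 CPM in resting CCR2+ve monocytes, with Cd3e and Cd3g under 0.1 CPM in the former. The higher sum was that of Nkg7 alone (means of 48.4 and 8.35 CPM), whereas Il2rb (0.104 and 0.980), Klrb1c (0.128 and 0.909) and Cd3d (0.223 and 0.432) were lower in CCR1/2+ve monocytes. Basophil and mast cell markers summed to 7.92 to 32.7 and 7.01 to 16.5 CPM, and eosinophil markers to 3.29 to 5.30 and 0.830 to 1.65 CPM. Siglecf (means of 2.25 and 0.949 CPM) and Ccr3 (1.94 and 0.185) made up most of the eosinophil difference, and Prg3 (0.317 and 0.0818) was also higher. Epx was at 0 in both, and Prg2 (0.00824 and 0.0771) and Il5ra (0 and 0.00897) were lower in CCR1/2+ve monocytes. The 11 tissue macrophage markers summed to 239 to 334 and 296 to 407 CPM and did not move together. Vcam1 (means of 26.2 and 1.69 CPM), Slc40a1 (16.8 and 1.75), C1qa (5.31 and 0.987), C1qb (12.0 and 3.86), C1qc (10.7 and 2.30) and Timd4 were higher in resting CCR1/2+ve monocytes. Adgre1 (184 and 314), Axl (12.4 and 31.8), Siglec1 (1.59 and 5.05), Mertk and Cd163 were lower. In inflamed CCR1/2+ve monocytes, where Hpgds was lower, Vcam1, Slc40a1, C1qa and C1qc stood at 2.16, 3.26, 1.44 and 1.86 CPM. There Adgre1 (586), Axl (37.2) and Siglec1 (7.65) were above their resting means. In the libraries labelled inflamed CCR1, Vcam1 (464) and Slc40a1 (537) were highest, with Hpgds at a mean of 0.808 CPM. The part of such cells in the level of Hpgds was not tested.

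Hpgd, which encodes the dehydrogenase that inactivates prostaglandins, ran opposite to Hpgds at rest. It was at 33.2, 17.1, 29.0 and 21.2 CPM in resting CCR1/2+ve and at 149, 73.5, 104 and 106 CPM in resting CCR2+ve monocytes. The populations did not overlap, and the level was 4.09-fold lower in CCR1/2+ve monocytes (log2 fold change −2.03, SE 0.24, edgeR, adjusted p = 0.000419). Under inflammation it stood at 3.005, 9.19 and 5.14 CPM in CCR1/2+ve and at 4.78, 10.6, 19.3 and 13.4 CPM in CCR2+ve monocytes, below rest in both and overlapping. The 10 dendritic cell markers moved with Hpgd at rest, summing to 36.5 to 119 CPM in CCR1/2+ve and 234 to 614 CPM in CCR2+ve monocytes. CCR2+ve replicate 1 was highest and replicate 2 lowest in both measures. H2-Ab1 (means of 41.6 and 226 CPM) made up most of the sum, whereas Zbtb46 (0.878 in each) and Ccr7 (0.210 and 0.271) hardly differed. Under inflammation, where Hpgd was below rest, the sum was 25.8 to 89.1 CPM in CCR1/2+ve and 135 to 589 CPM in CCR2+ve monocytes. The part of dendritic cells was not tested.

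**Figure D5:**
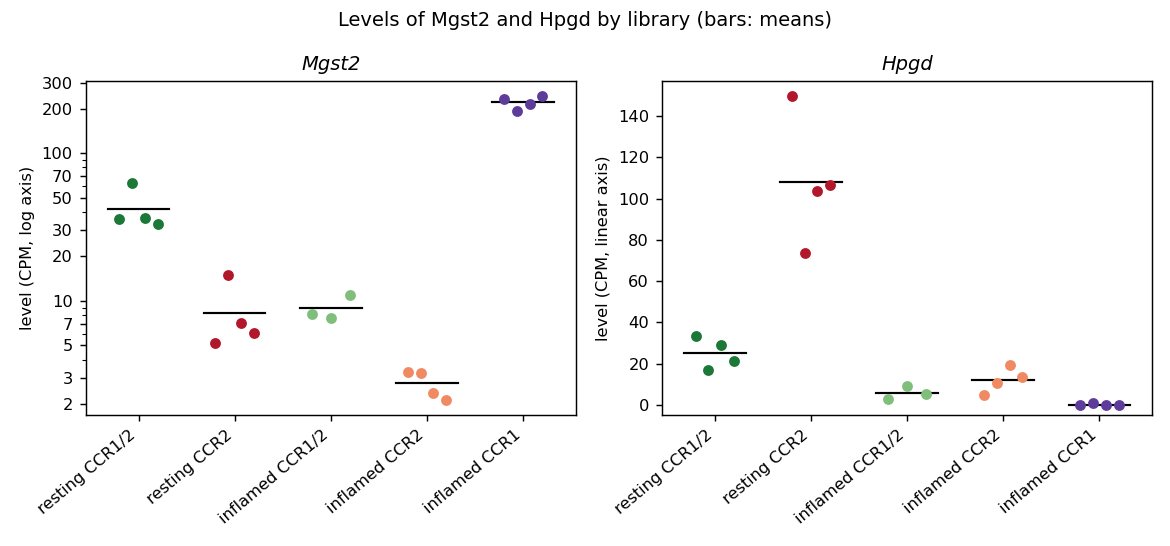
Level of Mgst2 (left, CPM on a log scale) and Hpgd (right, CPM on a linear scale) in each library by group, with bars at the means. At rest Mgst2 is higher (33.2 to 62.9 against 5.18 to 15.04 CPM) and Hpgd lower (17.1 to 33.2 against 73.5 to 149 CPM) in CCR1/2+ve monocytes.

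A wider list of 52 other genes of arachidonate release, eicosanoid synthesis, breakdown and reception had 45 in the table and 36 tested. Between the resting populations, 3 of the 36 passed higher in CCR1/2+ve monocytes (8.44% of all genes tested) and 5 lower (8.44%), and 2, Mgst2 and Hpgd, were called (4.25% of all genes). Between the inflamed populations 1, Mgst2, passed (0.188%) and was called (0.145%). In the interaction test 0 passed (edgeR).

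In CCR2+ve monocytes 19 of the 36 passed higher (21.9% of all genes) and 6 lower (25.9%) under inflammation, and 17 were called (28.6%). In CCR1/2+ve monocytes 16 passed higher (20.6%) and 6 lower (25.4%), and 16 were called (28.5%). The 6 with the smallest p were the same genes in both populations. Upregulated were Cotl1, the coactosin-like protein that binds 5-lipoxygenase (log2 fold change 1.95, SE 0.12, in CCR2+ve and 1.87, SE 0.14, in CCR1/2+ve monocytes), the lysophospholipid acyltransferase Lpcat3 (1.19 and 1.37) and the lysosomal phospholipase Pla2g15 (1.59 and 1.78). Downregulated were the acyltransferase Mboat7, which returns arachidonate to phosphatidylinositol (−2.51 and −2.41), the prostaglandin E synthase Ptges2 (−3.48 and −3.28) and Ptger4, the EP4 receptor of prostaglandin E2 (−3.02 and −2.77). All 12 of these calls held under every alternative tried, and exons on the opposite strand cover 16.5% of those of Ptger4. The largest adjusted p over those alternatives was 2.17e-05, for Cotl1 in CCR1/2+ve monocytes (edgeR and DESeq2).

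Against the inflamed CCR2+ve monocytes, the libraries labelled inflamed CCR1 had 6 of the 36 genes called higher (14.4% of all genes) and 11 lower (16.8%). Beside Mgst2 (log2 fold change 6.32, SE 0.16), the smallest p were those of Cyp4f18, which breaks down LTB4 (−4.69, SE 0.15), the cysteinyl leukotriene receptor Cysltr1 (−5.77, SE 0.20), the transferase Mgst3 (−3.14, SE 0.14), Dpep2, a dipeptidase that turns LTD4 into LTE4 (−6.86, SE 0.48), and Fam213b, a prostamide and prostaglandin F synthase (−2.45, SE 0.22). Against inflamed CCR1/2+ve monocytes, the thromboxane synthase Tbxas1 (−1.54, SE 0.13) took the place of Fam213b among the 6. The gene records named Dpep2 share exons, so its counts are uncertain.

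Across the 19 libraries, Lta4h, Alox5 and Ptgs1 ran together in log2 CPM (Pearson's r of 0.93 to 0.98 between pairs), and Alox5ap ran against each of them (−0.94 to −0.83). These values rest on the 4 libraries labelled inflamed CCR1. Over the other 15 libraries, r was 0.78 between Alox5 and Ptgs1, 0.34 between Lta4h and Alox5 and 0.44 between Lta4h and Ptgs1, and that of Alox5ap with the others was −0.47 to 0.21. The libraries of one group share their treatment and sort, so these are descriptions.

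Among 7685 genes with a mean of at least 10 CPM, those most like Lta4h, Alox5 and Alox5ap over the 19 libraries were Tmed3, Hmgn2 and Gatm for Lta4h (r of 0.998, 0.995 and 0.993), Cyfip2, Sec22c and Acap1 for Alox5 (all 0.988 to 0.989) and Fxyd5, Laptm4a and Fcer1g for Alox5ap (0.978 to 0.984). Over the 15 libraries without those labelled inflamed CCR1, 1 of these 9 genes, Tmed3, was again among the 3 most like its member (r of 0.936 with Lta4h). The other genes then most like a member were Dctpp1 for Lta4h (0.937), Bnip3l-ps for Alox5 (0.832), Ddx47 for Alox5ap (0.916) and B430306N03Rik for Ptgs1 (0.941).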

How the data were processed

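Bulk RNA-seq libraries of sorted monocytes were made with a low-input kit and read paired-end. The authors assessed reads with fastp, aligned them with STAR and counted unique alignments on genes of Ensembl release 91. The submitters' processing notes name STAR 2.7.10a and GRCm38. The deposited values are raw counts per gene. Of the sample columns of the table, 1 named a library not among the labelled samples and was not used. Of 50854 genes, 23256 had no read. Genes of chromosome 14, 7 of the wider list among them, were not analysed here.

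Genes averaging 1 read or more over the 19 libraries were tested with edgeR 4.0.16 (R 4.3.3, TMM factors, robust quasi-likelihood test), fitting only the groups compared, and p-values were adjusted by Benjamini-Hochberg over all 18652 genes. The interaction used the 15 libraries other than those labelled inflamed CCR1. CPM was computed with TMM factors over all 19 libraries, and CPM per kb used the union of exons in GENCODE M21. Exact permutation tests on CPM were two-sided. With 3 libraries against 4 they cannot go below 0.0571. The code was tested on simulated data, where at 4 libraries against 4 it recovered 97.5% of 200 changed genes out of 18652, and 2.5% of its calls were false. The changed genes were all well read and changed by more than the fold cutoff. The recovery thus does not cover smaller changes or genes with few reads.

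The 7 genes and the wider lists were chosen with earlier results of these data known. All 7 were described in every group. Of the wider list, genes past both cutoffs were named, up to 6 a comparison by smallest p. The values of Ptgs2os2, and those of Mgst2 and Hpgd under inflammation, were added after they had been seen. The genes most like Ptgs1 over all 19 libraries are not reported here. Promoters came from RefSeq (GRCm38.p6).

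Labels give the groups shared replicate numbers. Same-numbered libraries deviated together between the resting populations (r of 0.31 to 0.61 over 4 pairs and 7685 genes). They also did so between the libraries labelled inflamed CCR1 and inflamed CCR2+ve monocytes (0.13 to 0.25 over 4 pairs). The main tests nevertheless ignored replicate numbers in every comparison, and pairing entered only the alternatives with a replicate block. Elsewhere same-numbered libraries did not stand apart from the rest, with r of −0.31 to 0.50 over 3 pairs between the inflamed populations. So few pairs cannot exclude pairing there. Alternatives were DESeq2 1.42.0, RLE size factors, no filter, filterByExpr, 1 fit of all 19 libraries, a replicate block, a GC correction, both together, no fold cutoff and each library left out. Limits from counts of 0 cover counting error only.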

Additional observations from a re-analysis of the deposited data

Results flagged for a closer look

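In 6 of the 39 groups of 4 libraries examined, 1 library lay far from the other 3, with a gap to its neighbour above 0.829 of the range of the group. Chance gives such a gap in about 1 in 20 groups of measured values. That rate does not hold for the 3 groups of Ptgs2, whose other libraries held 0 reads, and values of 1 library are not independent. All 6 were libraries numbered 2. Alox5ap was lowest in replicate 2 of the libraries labelled inflamed CCR1, at 296 CPM (6550 reads). Ptgs2 was highest in replicate 2 of the resting CCR1/2+ve monocytes, at 0.976 CPM (32 reads), of the resting CCR2+ve monocytes, at 0.215 CPM (6 reads), and of the libraries labelled inflamed CCR1, at 0.0451 CPM (1 read). Mgst2 was highest in replicate 2 of the resting CCR1/2+ve monocytes, at 62.9 CPM (2060 reads). Hpgd was highest in replicate 2 of the libraries labelled inflamed CCR1, at 0.767 CPM (17 reads). In both resting populations, replicate 2 also held the highest sum of early granule markers, at 6781 CPM (CCR1/2+ve) and 1653 CPM (CCR2+ve). The part of cells expressing these markers in the levels of Mgst2 and Ptgs2 was not tested.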

How the results depend on the processing

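Over the 7 genes and 7 comparisons, 707 log2 fold changes kept their direction and their side of the threshold, 29 passed only under an alternative, 27 no longer passed and 28 changed sign, in 11 results that did not pass. Of the 28, 1 passed: Ptgs2 between inflamed and resting CCR1/2+ve monocytes, 4.87 without resting replicate 2, which held 32 of its reads (−1.58 to 4.87 over left-out libraries, 0.42 with the replicate block and 0.65 with the block and GC correction). Over left-out libraries, Ptgs2 also ran from −3.71 to 5.89 between the resting populations, −0.77 to 0.58 between the inflamed ones and −5.94 to 3.46 in the interaction. Alox5 ran from −0.12 to 0.12 for inflammation in CCR2+ve monocytes (0.0097 in 1 fit of all libraries). Hpgds ran from −0.64 to 0.33 there (0.019 in 1 fit of all libraries, 0.21 with GC correction) and −0.32 to 0.61 between the inflamed populations (−0.037 with GC correction). In the libraries labelled inflamed CCR1, Hpgds ran from −0.024 to 0.93 and Ltc4s from −0.14 to 2.08 against inflamed CCR2+ve monocytes, and −0.070 to 0.65 and −1.62 to 0.11 against inflamed CCR1/2+ve monocytes.

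With no fold cutoff, 4 members were called between the resting populations, 2 in each population under inflammation and 1 between the inflamed populations. DESeq2, RLE size factors and 1 fit of all 19 libraries each called 2 in inflamed against resting CCR1/2+ve monocytes, Ptgs1 beside Hpgds. Leaving out 1 library gave 1 to 2 there (Ptgs2 without resting replicate 2, Ptgs1 without resting replicate 3 or inflamed replicate 2), 0 to 1 for inflamed against resting CCR2+ve monocytes (Ltc4s, without replicate 3 of the inflamed ones), 4 to 5 for either comparison of the libraries labelled inflamed CCR1 (Ptgs2, on 0 to 8 reads per library), and the same count elsewhere. The causes were not tested.

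Over all genes, no fold cutoff gave 3149, 8921, 8586, 8972 and 8061 calls for the resting populations, for inflammation in the CCR2+ve and then the CCR1/2+ve population, and for the libraries labelled inflamed CCR1 against inflamed CCR2+ve and against inflamed CCR1/2+ve monocytes, in place of 792, 5327, 5320, 5830 and 5172. Left-out libraries moved the count of the resting populations to between 518 (without CCR2+ve replicate 4) and 1013. Between the inflamed populations (27 calls), DESeq2 gave 107, no filter 53, 1 fit of all libraries 53 and left-out libraries 15 to 42. The interaction (40 calls) gave 74 with no fold cutoff, 152 with DESeq2 and 0 to 104 with left-out libraries.

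Where same-numbered libraries deviated together, the replicate block gave the same counts of members called as the unpaired main tests. These were 1 between the resting populations and 4 for the libraries labelled inflamed CCR1 against inflamed CCR2+ve monocytes. Of the members' values there, it changed the side of the threshold for Alox5 at rest, with 0.28, and for no other. Over all genes, the block gave 83 calls between the inflamed populations and 64 for the interaction, and 76 and 70 with the GC correction.

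An added alternative, chosen after seeing the data and using no normalization factor, gave 4.08, 4.14 and 2.79 for Lta4h, Alox5 and Ptgs1 in the libraries labelled inflamed CCR1 against inflamed CCR2+ve monocytes. Also added were the likeness of genes without these 4 libraries and the reads of Ptgs2 without replicates numbered 2. Depth limits Ltc4s and Ptgs2, at 0 to 32 reads per library.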
